A study of Mus musculus with 30 samples.

Results

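Autophagy, lysosome and muscle atrophy genes were followed as a set of 42 named genes, found by symbol among the 20764 genes listed for mouse hearts and the 54532 genes listed for cultures labelled HL-1. All 42 passed the low count filter in hearts, where 15443 genes were tested. In the cultures 14760 genes were tested and 40 members passed, as *Klf15* and *Trim63* had too few reads. The members fall into 9 roles: initiation and nucleation (6 genes), membrane supply (4), conjugation (7), the ATG8 family (5), cargo receptors (3), mitophagy (4), lysosome regulators (3), lysosome membrane and hydrolases (7) and muscle atrophy (3).

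Autophagy encloses damaged mitochondria, protein aggregates and other cytoplasm in a membrane and delivers them to the lysosome for digestion. The ULK1 kinase complex starts this membrane, conjugation enzymes attach the ATG8 proteins (LC3 and GABARAP) to it, cargo receptors tether what is to be degraded, and TFEB and TFE3 switch on the genes of the lysosome. In heart muscle, whose cells are long lived, this route works beside the ubiquitin ligases atrogin-1 (*Fbxo32*) and MuRF1 (*Trim63*), while KLF15 is a transcription factor controlled by the clock and by glucocorticoids that restrains growth of the muscle.

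The hearts came from 18 female mice, with 3 mice in each of 6 groups and 1 library per heart. Young mice were 2 months old and untreated. Old mice were 12 months old and had received either water alone (old H2O, labelled MQ) or nicotinamide riboside (NR), a precursor of NAD+, at 3 g per l in the drinking water from the age of 2 months (old NR). Each group was taken at *Zeitgeber* time (ZT) 10, in the light phase, or ZT22, in the dark phase. The labels give the strain as C57BL6 and the methods as a cross of the J and N substrains, with no transgene. HL-1 is a commercial line from atrial tumours of a female mouse. Its 12 cultures, 3 per group, were left untreated or given FK866, which blocks the NAD+ synthesis enzyme NAMPT, on its own, together with NR, or together with NR and the sirtuin inhibitor Ex527. All cultures were of 1 line, so their p-values measure the spread between cultures of that line.

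Hearts held between 3922137 and 7562215 counts per library and the cultures between 21337922 and 35000109. Levels are given as TMM-normalized CPM (counts scaled to a common library size), and log2 fold changes as estimate ± SE. The 10 clock genes examined as a check of the time labels all differed between ZT10 and ZT22 in young, old H2O and old NR hearts. *Arntl*, the gene of the clock activator BMAL1, differed by -5.86, -3.19 and -4.55 on the log2 scale, so each set of mice carried its time label in its RNA. The 8 cardiomyocyte markers summed to between 8763 and 12700 CPM in hearts. In the cultures the same 8 genes summed to between 0.830 and 4.73 CPM, *Actc1* and *Pln* had no count in any of the 12 libraries, and the 5 atrial markers summed to between 0.320 and 1.70 CPM. The 6 fibroblast markers summed to between 2543 and 4142 CPM there. The RNA of the cultures therefore did not carry the defining markers of the labelled cell type, cardiomyocyte, and they are called the HL-1 cultures only as their labels do. Among the hearts, the 5 atrial markers summed to 744 CPM in young ZT10 replicate 1, 185 and 154 CPM in the others of that group and 530.0 CPM in old H2O ZT22 replicate 2, against 123 and 135 CPM in the others of its group.

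The promoters of 4 members with large changes in the hearts (*Klf15*) and in the cultures (*Bnip3*, *Mcoln1* and *Lamp1*) are shown because they carry the E-box CACGTG. This element is bound by the clock pair CLOCK and BMAL1 and by TFEB and TFE3. Not all members with such changes carry it: *Optn* and *Atg13* held no CACGTG in their promoters, and *Fbxo32* had no promoter entry. The windows run from 250 bases before to 20 bases after the RefSeq start on GRCm38.p6 and are printed 5′ to 3′ on the strand of the gene. Capitals mark each CACGTG, with the flanking base where it forms TCACGTG, the longer form found in lysosome genes, on either strand. The *Klf15* window lies at chr6:90462326-90462595 on the plus strand, that of *Bnip3* at chr7:138909487-138909756 on the minus strand, that of *Mcoln1* at chr8:3500269-3500538 on the plus strand and that of *Lamp1* at chr8:13158911-13159180 on the plus strand.
Klf15: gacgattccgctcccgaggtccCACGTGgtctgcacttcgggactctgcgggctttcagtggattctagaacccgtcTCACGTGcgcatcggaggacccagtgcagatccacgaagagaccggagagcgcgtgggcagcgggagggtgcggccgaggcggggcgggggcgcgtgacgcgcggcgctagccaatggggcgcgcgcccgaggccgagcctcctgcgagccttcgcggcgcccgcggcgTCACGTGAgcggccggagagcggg
Bnip3: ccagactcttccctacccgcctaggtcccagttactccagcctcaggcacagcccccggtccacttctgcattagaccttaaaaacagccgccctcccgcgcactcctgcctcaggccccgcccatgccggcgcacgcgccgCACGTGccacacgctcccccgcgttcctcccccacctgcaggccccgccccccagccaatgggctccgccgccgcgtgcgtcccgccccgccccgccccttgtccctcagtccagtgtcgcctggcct
Mcoln1: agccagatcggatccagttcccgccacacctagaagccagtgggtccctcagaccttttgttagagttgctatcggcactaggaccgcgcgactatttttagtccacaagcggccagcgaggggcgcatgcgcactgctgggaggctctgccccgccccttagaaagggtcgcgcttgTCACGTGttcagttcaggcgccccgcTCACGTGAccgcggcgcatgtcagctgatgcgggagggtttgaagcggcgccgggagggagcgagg
Lamp1: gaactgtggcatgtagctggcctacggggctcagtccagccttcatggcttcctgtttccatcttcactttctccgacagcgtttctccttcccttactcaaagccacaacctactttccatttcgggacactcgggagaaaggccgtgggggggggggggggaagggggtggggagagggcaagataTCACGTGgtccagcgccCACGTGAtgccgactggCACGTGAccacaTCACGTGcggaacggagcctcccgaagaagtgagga
*Lamp1* held 4 matches to CACGTG, the first bases of which lay 61, 45, 28 and 15 bases before the start, and each was part of a TCACGTG on the plus or minus strand. *Klf15* held 3, of which 2 had the longer form, *Mcoln1* held 2, both of the longer form, and *Bnip3* held 1 without it.

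Promoters of 300 bases (250 before to 50 after the start) were found in RefSeq for 34 of the 42 members. No entry was held for *Becn1*, *Pik3c3*, *Atg12*, *Atg16l1*, *Map1lc3a*, *Bnip3l*, *Ctsb* and *Fbxo32*. CACGTG occurred in 11 of the 34 (32.4%), beside 8.09% of all genes with a promoter entry. The 11 were *Atg3*, *Atg5*, *Atg7*, *Atg14*, *Bnip3*, *Ctsd*, *Ctsl*, *Gaa*, *Klf15*, *Lamp1* and *Mcoln1*. TCACGTG, which contains CACGTG, occurred in 8 of the 34 (23.5%), beside 4.29% of all genes. The forkhead motif TGTTTAC, searched on both strands like the others, was found in 1 member, *Trim63* (2.94% of the 34), beside 4.05% of all genes. These matches describe the sequence and show no binding.

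Per gene length, the members spanned a wide range of levels in both sources. In hearts the highest median was that of *Map1lc3a*, which encodes an LC3 protein, at 170.2 CPM per kb of gene length (from 126.8 to 192.5 over the 18 hearts). It was followed by *Pink1*, the kinase that marks damaged mitochondria, at 159 CPM per kb (from 126 to 189), and the ranges of these genes overlapped. *Lamp1*, a glycoprotein of the lysosome membrane, came next at 112 CPM per kb, and the lowest was *Tfe3* at 4.94 CPM per kb. In the cultures the deposited FPKM put *Lamp1* highest, with a median of 275 (from 244 to 422), above *Sqstm1* (p62, an aggregate receptor) at 124 and *Gabarap* at 111. The muscle genes stood at the other end there. *Fbxo32* had a median FPKM of 0.479, *Klf15* had reads in 2 of 12 libraries (1 and 3 counts), and *Trim63* had between 0 and 5 counts per library.

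**Figure D1:**
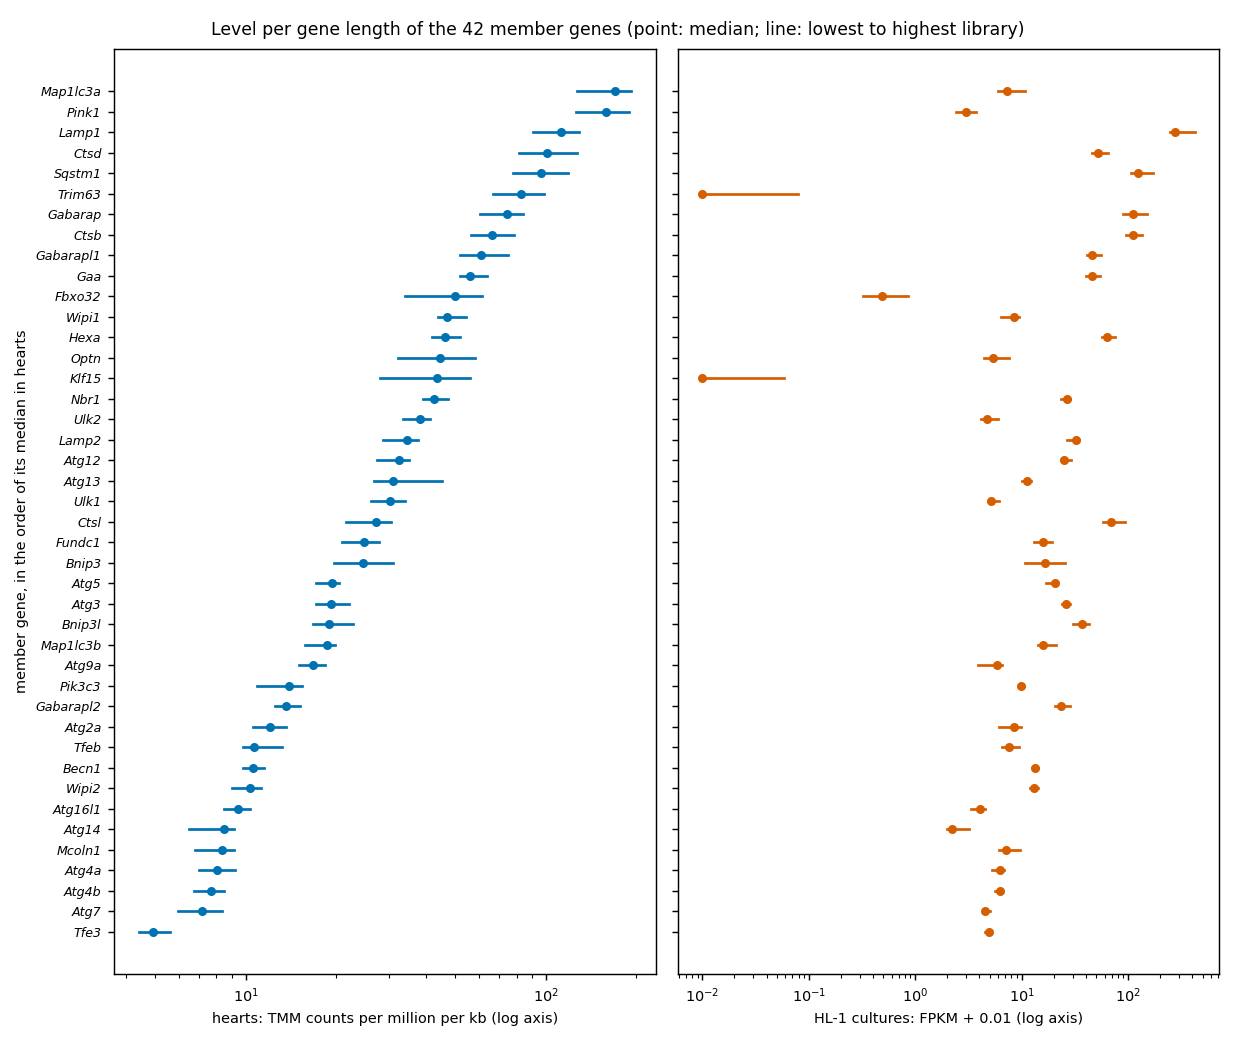
Level per gene length of the 42 members, as TMM CPM per kb in 18 hearts (left) and as deposited FPKM plus 0.01 in 12 HL-1 cultures (right), both on log axes. Points are medians and lines run from the lowest to the highest library. *Fbxo32*, *Trim63* and *Klf15* lie among the upper 15 members in hearts and at the bottom of the scale in the cultures.

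Most members varied little among the 6 heart groups. In bulk tissue, fewer cells of a type and less RNA per cell cannot be told apart, which applies to every difference below. The ratio of the highest to the lowest group mean was 1.83 for *Klf15*, 1.56 for *Fbxo32*, 1.52 for *Optn* and 1.31 for *Bnip3*, and the other 38 members had ratios from 1.07 to 1.29. Between ZT10 and ZT22, young hearts differed in 6 members (14.3%) at an adjusted p under 0.05, beside 14.4% of all genes tested (6.8% higher and 7.57% lower). *Klf15* and *Fbxo32* were higher at ZT10, and *Atg13*, *Optn*, *Bnip3* and *Hexa* were lower. Old H2O hearts differed between the times in 2 members (4.76%), *Klf15* and *Bnip3l*, both higher at ZT10, beside 4.2% of all genes (1.56% higher and 2.64% lower). Old NR hearts differed in 1 member (2.38%), *Bnip3l*, again higher at ZT10, beside 5.37% of all genes (2.36% higher and 3.01% lower). The median log2 fold change of the 42 members was 0.01 in young, 0.10 in old H2O and -0.01 in old NR hearts, while that of all genes tested was 0.01, -0.0010 and -0.01. Markers of other cell types also differed between the times in young hearts without overlap: the 5 endothelium markers summed to between 1265 and 1326 CPM at ZT10 and between 1457 and 1601 CPM at ZT22, and the 6 fibroblast markers to between 1431 and 1559 CPM and between 1366 and 1411 CPM. In old NR hearts the 5 atrial markers did so (112 to 130.1 CPM at ZT10, 160.4 to 225 CPM at ZT22), and the part of these markers in the members' values was not tested.

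With age, 2 members were higher in old H2O than in young hearts at ZT10 (4.76%, beside 5.87% of all genes, with 2.95% higher and 2.92% lower), *Optn* and *Hexa*. At ZT22, 5 members differed (11.9%, beside 14.1% of all genes, with 7.96% higher and 6.17% lower), with *Fbxo32* higher and *Atg13*, *Bnip3*, *Klf15* and *Tfeb* lower in old H2O hearts. Averaged over both times, *Optn* and *Fbxo32* were higher and *Tfeb* was lower (7.14%, beside 11.8% of all genes, with 6.86% higher and 4.95% lower). The members' medians were 0.07 at ZT10 and -0.06 at ZT22, beside -0.0012 and -0.0047 for all genes. The age by time interaction, which asks whether the ZT10 against ZT22 difference changed with age, was called for *Atg13*, *Klf15* and *Hexa* (7.14%, beside 6.89% of all genes, with 3.13% above 0 and 3.76% below 0). In each of these comparisons the share of members called was near or below the share of all genes. With age at ZT10 the fibroblast markers were lower without overlap (1241 to 1424 CPM in old H2O hearts) and the 5 red blood cell markers were higher (151 to 177 CPM, against 93.0 to 141 CPM in young hearts). At ZT22 the endothelium markers were lower (1236 to 1453 CPM in old H2O hearts). The 6 skeletal muscle markers were lower with age at both times (5.35 to 7.13 CPM in old H2O against 8.07 to 10.9 CPM in young hearts), and the part of these markers in the members' values was not tested.

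NR was tied to few calls among the members. At ZT10, edgeR called 0 of 42 members between old NR and old H2O hearts, beside 0.285% of all genes (0.117% higher and 0.168% lower). DESeq2 also called 0, and 7 members had an unadjusted p under 0.05. Counts at that cutoff, here and below, have no share of all genes beside them and do not set the members apart. At ZT22, *Klf15* alone was higher with NR (2.38% of members, beside 0.35% of all genes, with 0.0907% higher and 0.259% lower). Over the mean of both times edgeR and DESeq2 called 0 members (2 with an unadjusted p under 0.05), beside 0.337% of all genes (0.0453% higher and 0.291% lower). The NR by time interaction was called for *Klf15* (2.38%, beside 0.343% of all genes, with 0.233% above 0 and 0.11% below 0). The members' median was -0.11 at ZT10, with 30 of 42 below 0, and 0.04 at ZT22, with 30 of 42 above 0. The medians and shares of all genes are not given beside these, so no shift of the set is read from them. Markers of several cell types did not overlap between the hearts of old mice with and without NR. At ZT10 the atrial markers summed to between 112 and 130.1 CPM in old NR and between 388 and 505 CPM in old H2O hearts. The fibroblast markers summed to between 974 and 1128 CPM in old NR and between 1241 and 1424 CPM in old H2O hearts at ZT10, and to between 1045 and 1211 CPM and between 1249 and 1516 CPM at ZT22. The 8 macrophage markers summed to between 449.7 and 495 CPM in old NR and between 531 and 584 CPM in old H2O hearts at ZT10, and to between 428 and 458 CPM and between 560.4 and 633 CPM at ZT22. The red blood cell markers were lower with NR at ZT10 (126 to 143 CPM) and the skeletal muscle markers higher at ZT22 (6.65 to 7.82 CPM, against 5.86 to 6.60 CPM), and the part of all these markers in the members' values was not tested.

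**Figure D2:**
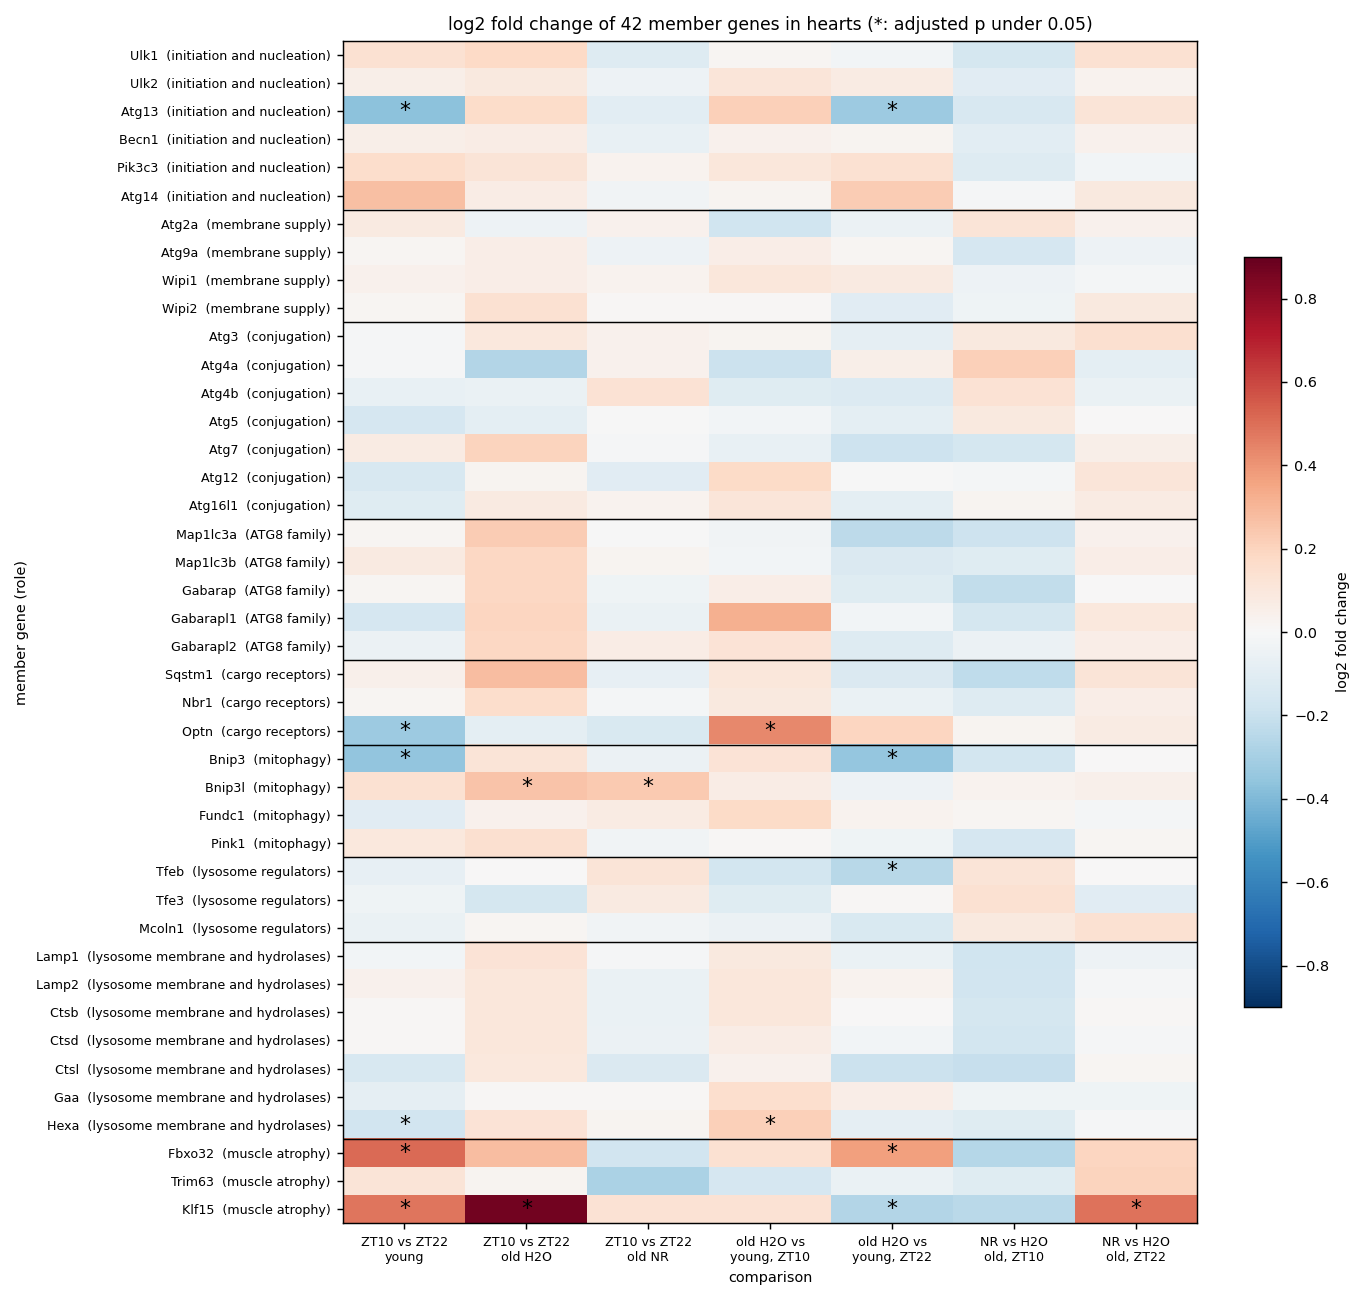
Log2 fold change of the 42 members in 7 heart comparisons, with members in rows by role and comparisons in columns. Red is higher and blue lower in the first-named group, and asterisks mark an adjusted p under 0.05. *Klf15* carries asterisks in 4 of the 7 columns, and the initiation to ATG8 rows carry them only for *Atg13*.

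*Klf15* (ENSMUSG00000030087, chr6:90462576-90475238, GRCm38) had the strongest pattern of the set. In young hearts its level was 137, 126 and 144 CPM at ZT10 and 95.3, 94.8 and 102 CPM at ZT22. In old H2O hearts it was 150.4, 138 and 156 CPM at ZT10 and 78.5, 83.1 and 81.2 CPM at ZT22. In old NR hearts it was 114.5, 129 and 130.3 CPM at ZT10 and 125.5, 118 and 100.3 CPM at ZT22. All hearts at ZT10 thus lay above all at ZT22 in the young and the old H2O mice, and the times overlapped in the old NR mice.

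The ZT10 against ZT22 difference of *Klf15* was 0.48 ± 0.08 in young hearts (adjusted p = 0.000221), 0.87 ± 0.08 in old H2O hearts (adjusted p = 3.39e-07) and 0.13 ± 0.08 in old NR hearts (adjusted p = 0.385). The age by time interaction was 0.39 ± 0.11 (adjusted p = 0.0377), as the level at ZT22 was lower in old H2O than in young hearts by 0.26 on the log2 scale (adjusted p = 0.0345) and that at ZT10 differed by 0.13 (adjusted p = 0.382). The NR by time interaction was -0.73 ± 0.11 (95% interval -0.96 to -0.51, adjusted p = 0.00562). With NR the level at ZT22 was higher by 0.49 ± 0.08 (adjusted p = 0.00815), or 1.40-fold, and that at ZT10 was 0.25 ± 0.08 lower without passing the test (adjusted p = 0.214). The NR by time call held without each library in turn (highest adjusted p = 0.0351). It rests in part on old NR ZT10 replicates 1 and 3, which differed little beyond counting error (chi-square per gene 1.06). Leaving out either keeps the other, so these fits cannot test whether the pair came from separate mice. The NR call at ZT22 was lost without old NR ZT22 replicate 2 (adjusted p = 0.0590). The age by time call held only without young ZT10 replicate 3, young ZT22 replicate 1 or old H2O ZT10 replicate 2 (0.33 to 0.44 over the 12 fits). The age call at ZT22 was lost without any of the 6 hearts compared (-0.28 to -0.23) and with DESeq2 (adjusted p = 0.0594), which also lost the age by time call (adjusted p = 0.0515), and the NR call at ZT22 was also lost when only its 6 hearts were fitted (adjusted p = 0.117).

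As *Klf15* answers to glucocorticoids, 10 glucocorticoid-responsive genes were examined beside it. *Tsc22d3* (GILZ), a direct target of the glucocorticoid receptor, was higher at ZT10 than at ZT22 by 0.53 ± 0.08 in young, 0.65 ± 0.08 in old H2O and 0.28 ± 0.08 in old NR hearts, with adjusted p of 5.31e-05, 1.88e-05 and 0.03415. Its NR by time interaction was -0.37 ± 0.11 (adjusted p = 0.197). Of the 10 genes, edgeR called 0 in the NR comparisons at ZT10 and at ZT22, beside 0.285% and 0.35% of all genes. With so few genes called, 0 of 10 does not show a lack of change. At an unadjusted p under 0.05 there were 3 in each, with no share of all genes at that cutoff given. The 10 genes summed to between 1285 and 1593 CPM in old H2O and between 1303 and 1546 CPM in old NR hearts at ZT22, against sums between 1607 and 1798 CPM and between 1582 and 1730 CPM at ZT10. In young hearts the sums overlapped between the times, from 1554 to 1677 CPM at ZT10 and from 1399 to 1795 CPM at ZT22. Apart from *Tsc22d3*, the time differences of single genes of this list are not reported here. The part of these genes in the *Klf15* values was not tested.

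*Fbxo32* (chr15:58175879-58214932), the ubiquitin ligase atrogin-1, measured 326.5, 368 and 411 CPM in young hearts at ZT10 and 265, 237.5 and 274 CPM at ZT22. In old H2O hearts it measured 399, 386 and 429 CPM at ZT10 and 368, 297 and 337.5 CPM at ZT22. In old NR hearts it measured 351, 321 and 344 CPM at ZT10 and 420.1, 345 and 379.9 CPM at ZT22. The young hearts at ZT22 were the lowest of all groups and overlapped with none of the other 5.

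The time difference of *Fbxo32* was 0.51 ± 0.10 in young hearts (adjusted p = 0.000973), 0.28 ± 0.10 in old H2O hearts (adjusted p = 0.112) and -0.17 ± 0.10 in old NR hearts (adjusted p = 0.367). With age it was higher by 0.37 ± 0.10 at ZT22 (adjusted p = 0.0148) and by 0.25 ± 0.07 over both times (adjusted p = 0.0195). Neither the age by time interaction (-0.23 ± 0.14, adjusted p = 0.342) nor the NR by time interaction (-0.45 ± 0.14, adjusted p = 0.213) passed the test, so a difference in rhythm between the groups was not shown. Leaving out young ZT22 replicate 2 raised the adjusted p of the age difference at ZT22 to 0.0824, and the age call over both times was lost without that heart, young ZT10 replicate 1 or old H2O ZT10 replicate 3 (0.21 to 0.29 over the fits).

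*Trim63*, the ligase MuRF1, measured 246, 238 and 265 CPM in young hearts at ZT10 and 244, 213 and 235 CPM at ZT22. In old H2O hearts it measured 239.6, 218 and 217 CPM at ZT10 and 257, 208.5 and 201 CPM at ZT22, and in old NR hearts 218, 189 and 219.7 CPM at ZT10 and 280.1, 248 and 235 CPM at ZT22. Between the times its groups overlapped in young and old H2O hearts, while in old NR hearts ZT10 lay below ZT22 by 0.28 ± 0.09 on the log2 scale (adjusted p = 0.0747). It was called in 0 of the 11 heart comparisons.

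**Figure D3:**
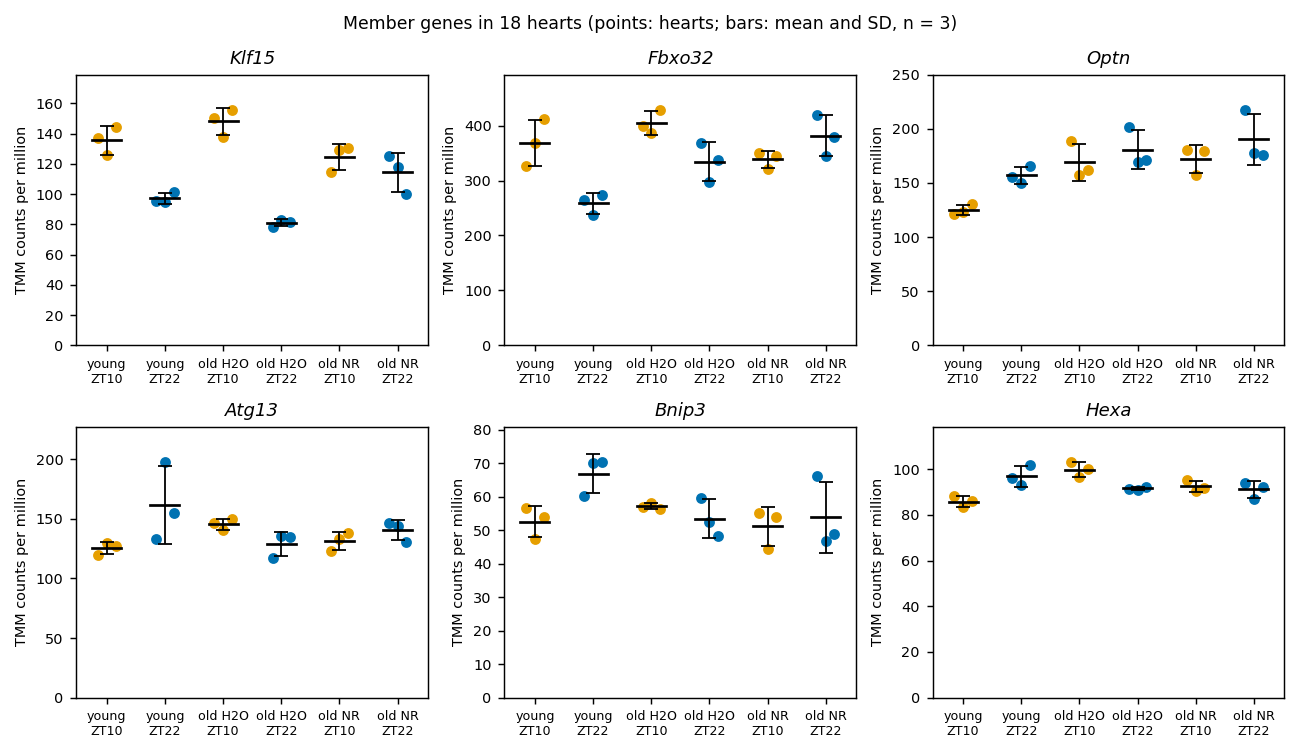
TMM CPM of 6 members in each of the 18 hearts, with group means and SD (n = 3), ZT10 in orange and ZT22 in blue. *Klf15* differs between the times in young and old H2O hearts and overlaps in old NR hearts (group means 125 and 114.5).

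Among the initiation genes, *Ulk1*, the kinase that starts the membrane, did not pass the test in any heart comparison. It measured 195, 209 and 215 CPM in young ZT10, 183, 200 and 179 CPM in young ZT22, 199, 216.5 and 212 CPM in old H2O ZT10 and 199, 187 and 169.9 CPM in old H2O ZT22 hearts. With NR it measured 188, 190.2 and 184 CPM at ZT10 and 221, 197 and 192 CPM at ZT22, so all groups lay within the range from 169.9 to 221 CPM. *Atg13*, the adaptor of the ULK1 complex, measured 119.6, 129.8 and 127 CPM in young hearts at ZT10 and 133, 198 and 155 CPM at ZT22. In old H2O hearts it measured 147, 140.4 and 149.5 CPM at ZT10 and 117, 135 and 135 CPM at ZT22. The old NR hearts measured 123, 133 and 138 CPM at ZT10 and 147, 144 and 131 CPM at ZT22.

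The young ZT22 heart at 198 CPM stood above all other hearts for *Atg13*. The gene was lower at ZT10 than at ZT22 by 0.37 ± 0.10 in young hearts (adjusted p = 0.0134), and the difference was 0.17 ± 0.10 in old H2O hearts (adjusted p = 0.400), with an age by time interaction of 0.54 ± 0.14 (adjusted p = 0.0222). At ZT22 it was lower in old H2O than in young hearts by 0.33 (adjusted p = 0.0293), although these groups overlapped. Without young ZT22 replicate 2 these 3 calls were lost, with log2 values of -0.20 for the time difference in young hearts and -0.15 for the age difference at ZT22. The age call at ZT22 was also lost without any old H2O ZT22 heart and when only its 6 hearts were fitted (adjusted p = 0.145), the time call without young ZT10 replicate 1, and the interaction without that heart or old H2O ZT10 replicate 1 or 3 (0.37 to 0.66 over the fits). The other 4 initiation genes, the 4 membrane supply genes and the 7 conjugation genes, which include the E1-like enzyme *Atg7*, were called in 0 of the 11 heart comparisons.

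None of the 5 ATG8 genes was called in hearts. *Map1lc3b*, the LC3 gene most used to follow autophagosomes, measured 149.7, 142 and 149 CPM in young ZT10, 143, 131 and 142 CPM in young ZT22, 145, 143 and 144 CPM in old H2O ZT10 and 139, 124 and 119 CPM in old H2O ZT22 hearts. In old NR hearts it measured 139, 125 and 138 CPM at ZT10 and 149, 121 and 127 CPM at ZT22. Its largest difference was between the times in old H2O hearts, 0.19 ± 0.07 (adjusted p = 0.182). Transcript levels of these genes do not measure autophagic flux, which was not assayed here.

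Of the cargo receptors, *Optn* (optineurin, a receptor for mitochondria and bacteria) was higher with age. It measured 121, 123 and 130.3 CPM in young hearts at ZT10 and 156, 150.0 and 165 CPM at ZT22, against 189, 157 and 161.5 CPM and 201.5, 169 and 171 CPM in old H2O hearts. With NR it measured 180.2, 157 and 179.5 CPM at ZT10 and 217, 178 and 176 CPM at ZT22. Every old heart at ZT10 lay above the 3 young ones, and the difference between old H2O and young hearts was 0.44 ± 0.09 at ZT10 (adjusted p = 0.00637) and 0.32 ± 0.06 over both times (adjusted p = 0.00267), both held without each library in turn. At ZT22 it was 0.20 ± 0.09 (adjusted p = 0.160), and the age by time interaction of 0.24 ± 0.13 did not pass (adjusted p = 0.291). In young hearts *Optn* was lower at ZT10 by 0.33 ± 0.09 (adjusted p = 0.0184), a call lost without ZT10 replicate 1 or 2 or ZT22 replicate 3 (-0.36 to -0.29 over the fits).

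*Sqstm1*, which encodes p62, measured 333, 321 and 356 CPM in young ZT10, 322, 334 and 319.9 CPM in young ZT22, 391, 334 and 357 CPM in old H2O ZT10 and 355, 282 and 261 CPM in old H2O ZT22 hearts. The old NR hearts measured 320.2, 276.5 and 327 CPM at ZT10 and 397, 279 and 298 CPM at ZT22. The spread within groups was wide, with SDs up to 63.5 CPM, and no difference passed the test. In old hearts at ZT22 the highest value of each group was that of replicate 1, the hearts with the fewest counts (3922137 with water, 4364594 with NR). These hearts also had the highest sums of the cardiomyocyte markers, 12700 and 11980 CPM. The part of this in the *Sqstm1* values was not tested. *Nbr1*, its relative, was likewise called in 0 comparisons.

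Of the mitophagy genes, which mark mitochondria for removal, *Bnip3* measured 56.5, 47.3 and 53.8 CPM in young hearts at ZT10 and 60.1, 70.03 and 70.3 CPM at ZT22. In old H2O hearts it measured 57.0, 58.1 and 56.4 CPM at ZT10 and 59.6, 52.3 and 48.1 CPM at ZT22, and in old NR hearts 55.01, 44.5 and 53.9 CPM at ZT10 and 66.1, 46.6 and 48.7 CPM at ZT22. Young hearts at ZT22 lay above both the young ZT10 and the old H2O ZT22 hearts. The log2 difference was -0.35 ± 0.11 for ZT10 against ZT22 in young hearts (adjusted p = 0.0385) and -0.35 ± 0.11 for old H2O against young hearts at ZT22 (adjusted p = 0.0397). The age by time interaction was 0.47 ± 0.16 (adjusted p = 0.0772). Both calls were lost with DESeq2 (adjusted p = 0.0542 and 0.0785), and the second also when only its 6 hearts were fitted (adjusted p = 0.0569), while the interaction was called when only its own hearts were fitted (adjusted p = 0.0372). The time call and the age call were each lost without young ZT22 replicate 2 or 3, the first also without young ZT10 replicate 2 or 3 and the second without old H2O ZT22 replicate 2 or 3, over which the values ran from -0.42 to -0.28 and from -0.41 to -0.27.

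*Bnip3l* (NIX) is the paralog of *Bnip3*. It measured 74.75, 75.55 and 79.1 CPM in young hearts at ZT10 and 67.5, 69.9 and 71.0 CPM at ZT22, then 83.7, 77.8 and 79.4 CPM against 68.9, 68.4 and 64.9 CPM in old H2O hearts and 87.9, 75.5 and 83.3 CPM against 72.2, 65.3 and 71.8 CPM in old NR hearts. In all 3 sets of mice the ZT10 hearts lay above the ZT22 hearts. The difference was 0.14 ± 0.07 in young (adjusted p = 0.191), 0.25 ± 0.07 in old H2O (adjusted p = 0.0287) and 0.24 ± 0.06 in old NR hearts (adjusted p = 0.0286), and DESeq2 placed both calls above the threshold (adjusted p = 0.0877 and 0.0923). The old NR call was lost as well when only its 6 hearts were fitted (adjusted p = 0.0857). The old H2O call was lost without ZT10 replicate 1 or 3 or ZT22 replicate 2 or 3 of that group (0.22 to 0.28 over the fits), and the old NR call without its ZT10 replicate 1 or 3 or ZT22 replicate 2 (0.19 to 0.30). *Pink1* and *Fundc1* were called in 0 comparisons.

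*Tfeb*, the main activator of lysosome genes, was lower with age. It measured 60.8, 69.7 and 66.0 CPM in young hearts at ZT10 and 67.1, 74.8 and 64.9 CPM at ZT22, against 56.0, 61.5 and 57.6 CPM and 58.8, 60.7 and 55.5 CPM in old H2O hearts. In old NR hearts it measured 65.2, 67.3 and 57.1 CPM at ZT10 and 57.03, 57.5 and 60.5 CPM at ZT22. The groups of young and old H2O hearts overlapped at ZT10 and did not at ZT22. The age difference was -0.21 ± 0.05 over both times (adjusted p = 0.0157) and -0.25 ± 0.08 at ZT22 (adjusted p = 0.0325), and the difference between old NR and old H2O hearts was 0.06 ± 0.05 over both times (adjusted p = 0.749). The call over both times held without each library in turn, while that at ZT22 was lost without young ZT22 replicate 2 or old H2O ZT22 replicate 1 or 3 (-0.29 to -0.18 over the fits), with DESeq2 (adjusted p = 0.0945) and when only its 6 hearts were fitted (adjusted p = 0.1001). *Tfe3* and *Mcoln1*, the calcium channel of the lysosome, were not called in hearts.

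In the group of lysosome membrane proteins and hydrolases, 1 of 7 genes was called in hearts. *Hexa*, a subunit of the ganglioside-degrading hexosaminidase, measured 88.1, 83.4 and 86.0 CPM in young hearts at ZT10 and 96.0, 92.9 and 102 CPM at ZT22. In old H2O hearts it measured 103, 96.4 and 99.96 CPM at ZT10 and 91.6, 91.1 and 92.4 CPM at ZT22, and in old NR hearts 95.2, 90.7 and 91.8 CPM at ZT10 and 93.9, 87.2 and 92.4 CPM at ZT22. The order of the times was opposite in young and old H2O hearts, with an interaction of 0.30 ± 0.08 (adjusted p = 0.0254), and *Hexa* was higher with age at ZT10 by 0.22 ± 0.06 (adjusted p = 0.0244). DESeq2 gave adjusted p of 0.0883 and 0.0821 for these. The interaction was lost without any of 6 of the 12 libraries (young ZT10 replicates 2 and 3, young ZT22 replicate 3, old H2O ZT10 replicates 1 and 3 and old H2O ZT22 replicate 2), with values from 0.26 to 0.33. The age call at ZT10 was lost without any of young replicates 2 and 3 and old H2O replicates 1 and 3 (0.19 to 0.24), and the lower level at ZT10 in young hearts (-0.17 ± 0.06, adjusted p = 0.0407) held only without young ZT22 replicate 2 and was lost with DESeq2 (adjusted p = 0.132), without a filter on low counts (adjusted p = 0.0617) and when only its 6 hearts were fitted (adjusted p = 0.103).

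*Lamp1* measured 300.2, 288.5 and 304.5 CPM in young ZT10, 321, 283 and 305 CPM in young ZT22, 337, 299.5 and 313 CPM in old H2O ZT10 and 346, 282 and 248 CPM in old H2O ZT22 hearts. With NR it measured 295, 242 and 302 CPM at ZT10 and 339, 251 and 259 CPM at ZT22, and all of these ranges overlapped. Macrophages are rich in lysosomes, and the 8 macrophage markers summed to between 458 and 504 CPM in young and between 531 and 584 CPM in old H2O hearts at ZT10, and to between 435 and 484 CPM and between 560.4 and 633 CPM at ZT22. In old NR hearts they summed to between 428 and 495 CPM over both times. Their part in the lysosome genes was not tested.

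The wider pathways were examined in the same fits. Of 52 other lysosome genes, 5 were higher and 5 lower at ZT10 than at ZT22 in young hearts (19.2%, beside 14.4% of all genes). Among them were *Naglu* (0.85, adjusted p = 0.000153) and the cholesterol transporter *Npc1* (0.65, adjusted p = 2.94e-05). In old H2O hearts edgeR called 0 of the 52 by time, beside 4.2% of all genes (4 with an unadjusted p under 0.05). With age at ZT22, 6 were higher and 4 lower (19.2%, beside 14.1% of all genes), led by *Naglu* (0.61), *Sgsh* (0.60) and *Sort1* (0.51). Of 35 other genes of the autophagy machinery, 5 were called by time in young hearts (14.3%) and 4 by age at ZT22 (11.4%), near those shares of all genes. Of 24 other atrophy and FOXO genes, 6 were called by time in young hearts (25%, beside 14.4% of all genes), led by *Foxo3*, a forkhead activator of atrophy genes, at 0.52 (adjusted p = 7.89e-05). For NR at ZT22 edgeR called 0 genes of these 3 lists, beside 0.35% of all genes (6 lysosome, 3 autophagy and 2 atrophy genes had an unadjusted p under 0.05). For NR at ZT10 it called *Sort1* (-0.39, adjusted p = 0.0473) and *Fbxo21* (0.35, adjusted p = 0.0227), beside 0.285% of all genes.

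In the HL-1 cultures most changes with FK866 were smaller than the 1.5-fold minimum applied to these libraries. At an adjusted p under 0.01 and a change past 1.5-fold, FK866 raised *Mcoln1* and lowered *Bnip3* (5% of the 40 members tested, beside 4.59% of all genes, with 2.09% higher and 2.5% lower). Without the fold minimum 10 members were higher and 5 lower (37.5%, beside 13.9% of all genes, with 6.19% higher and 7.68% lower). Higher were *Ulk2*, *Atg2a*, *Atg16l1*, *Sqstm1*, *Optn*, *Mcoln1*, *Lamp1*, *Ctsd*, *Ctsl* and *Gaa*, and lower were *Wipi1*, *Bnip3*, *Bnip3l*, *Fundc1* and *Tfeb*.

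When NR was added to FK866, *Bnip3* was higher and *Optn*, *Lamp1* and *Ctsl* were lower than with FK866 alone (10% of members, beside 4.81% of all genes, with 2.79% higher and 2.02% lower). Without the fold minimum 3 members were higher and 10 lower (32.5%, beside 15.3% of all genes, with 7.33% higher and 7.97% lower). This comparison shares the 3 FK866 libraries with the one before, so opposite directions are in part built in and the values are given side by side. Between FK866 plus NR and untreated cultures, a comparison with none of the FK866-only libraries in its contrast, edgeR and DESeq2 called 0 members. Of all genes, edgeR called 0.901% (0.793% higher and 0.108% lower). Without the fold minimum *Ctsl* was called lower (2.5%, beside 2.66% of all genes). At an unadjusted p under 0.05 there were 16 members, with no share of all genes at that cutoff given.

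Ex527 added to FK866 and NR lowered *Bnip3* (2.5% of members, beside 0.596% of all genes, with 0.21% higher and 0.386% lower), the only member called with or without the fold minimum (2.21% of all genes without it, 1.07% higher and 1.14% lower). Between the cultures with all 3 agents and those with FK866 alone, edgeR and DESeq2 called 0 members. Of all genes, edgeR called 1.27% (0.413% higher and 0.86% lower). At an unadjusted p under 0.05 there were 21 members, with no share of all genes at that cutoff given. Without the fold minimum 1 member was higher and 8 were lower there (22.5%, beside 4.75% of all genes, with 2.42% higher and 2.33% lower). The fibroblast markers moved with the treatments: the 6 genes summed to between 3780 and 4142 CPM in untreated, 2543 and 2683 CPM in FK866, 3769 and 3818 CPM in FK866 plus NR and 3306 and 3426 CPM in FK866, NR and Ex527 cultures. Their part in the members' values was not tested.

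**Figure D4:**
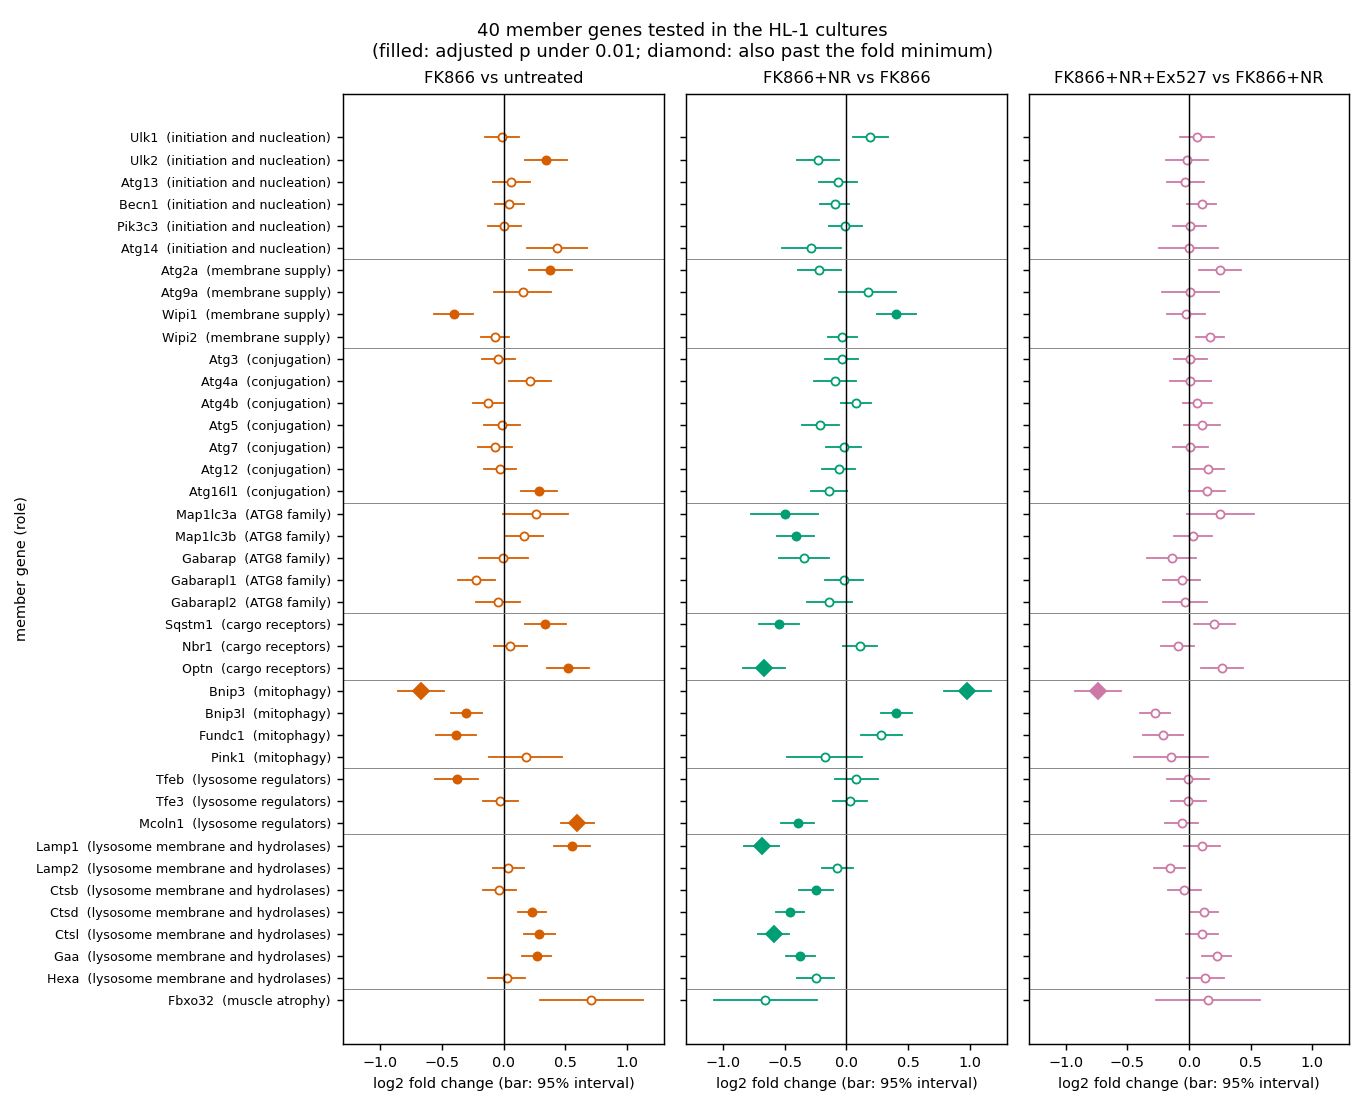
Log2 fold change with its 95% interval of the 40 members tested, by role, for FK866 against untreated, FK866 plus NR against FK866 and FK866, NR and Ex527 against FK866 plus NR. Filled symbols have an adjusted p under 0.01 and diamonds also pass the 1.5-fold minimum. In the right panel *Bnip3* (-0.74) is the single filled symbol.

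*Bnip3* (ENSMUSG00000078566, chr7:138890836-138909519), a receptor that draws mitochondria into autophagosomes, was called in 3 of the 5 culture comparisons, more than any other member with the fold minimum. It measured 44.2, 43.02 and 43.3 CPM in untreated, 31.2, 25.9 and 24.8 CPM in FK866, 47.8, 55.8 and 57.97 CPM in FK866 plus NR and 32.1, 32.5 and 32.5 CPM in FK866, NR and Ex527 cultures. No group overlapped with another. FK866 lowered it by 0.67 ± 0.09 (adjusted p = 7.45e-05), FK866 plus NR exceeded FK866 by 0.98 ± 0.09 (1.97-fold, adjusted p = 2.59e-06), and Ex527 lowered it by 0.74 ± 0.09 from there (adjusted p = 0.000211). Each of these calls held without each library in turn. The cultures with all 3 agents exceeded FK866 alone by 0.24 ± 0.09 (adjusted p = 0.0886).

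The other mitophagy genes changed less. *Bnip3l* measured 155, 145 and 149 CPM in untreated, 123.5, 118 and 123 CPM in FK866, 151, 165 and 166 CPM in FK866 plus NR and 133, 128 and 138 CPM in FK866, NR and Ex527 cultures. It was lower with FK866 by 0.30 ± 0.06 (adjusted p = 0.00160) and higher with FK866 plus NR than with FK866 by 0.41 ± 0.06 (adjusted p = 0.000152), both under the fold minimum. *Fundc1*, a mitochondrial receptor that works in low oxygen, was lower with FK866 by 0.38 ± 0.08 (adjusted p = 0.00202).

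*Lamp1* (chr8:13159161-13175338), which lines the lysosome membrane, measured 682.5, 761 and 828 CPM in untreated, 1110, 1138 and 1084 CPM in FK866, 665, 687 and 718 CPM in FK866 plus NR and 712, 729.9 and 786 CPM in FK866, NR and Ex527 cultures. The 3 FK866 cultures stood above the other 9, which overlapped. FK866 raised it by 0.55 ± 0.07 (1.47-fold, adjusted p = 3.39e-05), just under the fold minimum, and with NR it was lower than with FK866 alone by 0.69 ± 0.07 (adjusted p = 5.62e-06). With Ex527 the difference was 0.11 ± 0.07 (95% interval -0.04 to 0.25, adjusted p = 0.369).

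Without the fold minimum, 4 of the 7 lysosome membrane and hydrolase genes were called higher with FK866 than in untreated cultures. That was so for 6.19% of all genes, with 13.9% called in either direction. With FK866 plus NR, 5 of the 7 were called lower than with FK866, beside 7.97% of all genes (15.3% in either direction). In both comparisons 0 of the 7 were called the other way. Both use the same FK866 libraries, so the opposite directions are in part built in and are not an independent reversal. The medians of the 7 were 0.23 and -0.37, beside 0.02 and 0.0055 for all genes tested. *Ctsl* (chr13:64359337-64370890), a cysteine protease of the lysosome, measured 462, 461 and 504 CPM in untreated, 577, 613 and 551 CPM in FK866, 380.4, 385 and 391 CPM in FK866 plus NR and 419, 391 and 432.5 CPM in FK866, NR and Ex527 cultures. FK866 cultures were the highest and the cultures with NR lay below the untreated ones. The differences were 0.29 ± 0.06 for FK866 (adjusted p = 0.00258) and -0.59 ± 0.06 for FK866 plus NR against FK866 (adjusted p = 7.21e-06), and the latter fell under the fold minimum without FK866 replicate 2 or FK866 plus NR replicate 1 or 2. *Ctsd* and *Gaa*, the protease cathepsin D and the enzyme that digests glycogen in lysosomes, were lower with FK866 plus NR than with FK866 by 0.46 ± 0.05 and 0.37 ± 0.06.

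Among the regulators, *Mcoln1* (chr8:3500457-3515232) measured 46.5, 48.97 and 47.2 CPM in untreated, 71.9, 72.5 and 71.3 CPM in FK866, 56.3, 54.4 and 53.4 CPM in FK866 plus NR and 53.6, 55.8 and 48.1 CPM in FK866, NR and Ex527 cultures. FK866 raised it by 0.60 ± 0.06 (1.51-fold, adjusted p = 9.96e-06), and it fell under the fold minimum without untreated replicate 1 or FK866 replicate 2. *Tfeb* measured 49.0, 53.98 and 54.3 CPM in untreated, 40.6, 42.8 and 37.3 CPM in FK866, 42.1, 40.6 and 44.9 CPM in FK866 plus NR and 43.6, 45.2 and 37.9 CPM in FK866, NR and Ex527 cultures. Untreated cultures lay above all treated ones, with a difference of -0.38 ± 0.08 for FK866 (adjusted p = 0.00280), and the difference between FK866 plus NR and FK866 was 0.08 ± 0.08 (adjusted p = 0.480).

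**Figure D5:**
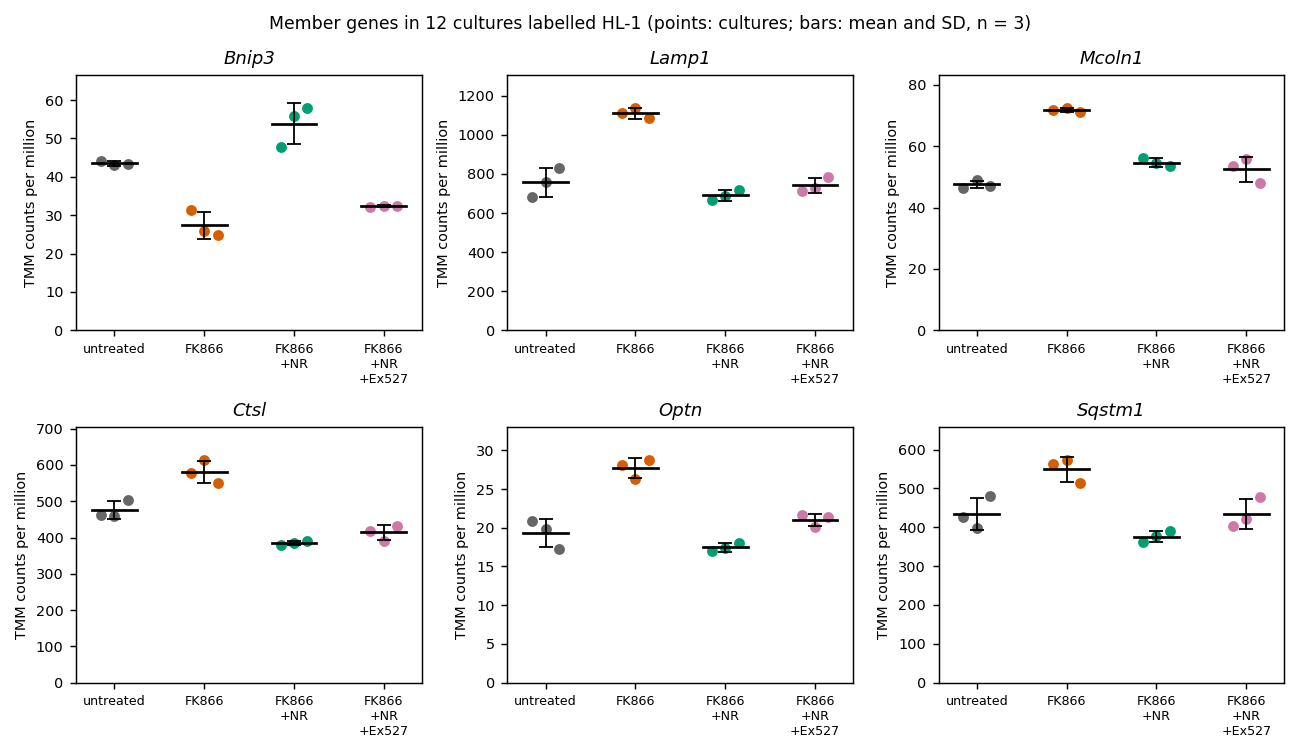
TMM CPM of 6 members in each of the 12 HL-1 cultures, with group means and SD (n = 3). *Bnip3* is low with FK866 (mean 27.3) and with Ex527 (mean 32.3), while *Lamp1*, *Mcoln1*, *Ctsl*, *Optn* and *Sqstm1* have their highest mean with FK866.

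The cargo receptors *Optn* and *Sqstm1* were both highest with FK866. *Optn* measured 20.85, 19.8 and 17.3 CPM in untreated, 28.1, 26.25 and 28.7 CPM in FK866, 16.97, 17.35 and 18.02 CPM in FK866 plus NR and 21.6, 20.15 and 21.3 CPM in FK866, NR and Ex527 cultures. It was higher with FK866 by 0.52 ± 0.08 (adjusted p = 0.000246) and lower with FK866 plus NR than with FK866 by 0.67 ± 0.08 (adjusted p = 3.53e-05), the latter past the fold minimum. *Sqstm1* measured 426, 399 and 479.8 CPM in untreated, 562, 573 and 513 CPM in FK866, 361, 377 and 390.5 CPM in FK866 plus NR and 404, 420.4 and 477 CPM in FK866, NR and Ex527 cultures. Its differences were 0.34 ± 0.08 for FK866 (adjusted p = 0.00515) and -0.55 ± 0.08 for FK866 plus NR against FK866 (adjusted p = 0.000137), both under the fold minimum.

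Of the ATG8 genes, *Map1lc3b* measured 120.4, 132.5 and 144 CPM in untreated, 149, 159 and 137 CPM in FK866, 108, 113 and 114 CPM in FK866 plus NR and 115, 110.5 and 118 CPM in FK866, NR and Ex527 cultures. FK866 and untreated cultures overlapped (0.17 ± 0.07, adjusted p = 0.102), and FK866 plus NR was lower than FK866 by 0.41 ± 0.07 (adjusted p = 0.000718). *Ulk1* measured 32.2, 33.4 and 32.1 CPM in untreated, 32.0, 31.4 and 33.4 CPM in FK866, 39.05, 34.65 and 37.1 CPM in FK866 plus NR and 37.1, 39.9 and 38.6 CPM in FK866, NR and Ex527 cultures. The cultures with NR lay above those without it, and the difference of 0.20 ± 0.07 between FK866 plus NR and FK866 did not pass (adjusted p = 0.0375). *Wipi1*, which binds the lipid of the growing membrane, was lower with FK866 by 0.41 ± 0.07 (adjusted p = 0.00113) and higher with FK866 plus NR than with FK866 by 0.40 ± 0.07 (adjusted p = 0.00112). Of the 7 conjugation genes, 1 (*Atg16l1*, 0.28 ± 0.07) was called without the fold minimum for FK866 and 0 for FK866 plus NR against FK866.

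*Fbxo32* was the single muscle atrophy gene tested in the cultures, at between 56 and 153 counts per library. It measured 3.08, 3.60 and 2.21 CPM in untreated, 3.92, 4.59 and 6.03 CPM in FK866, 3.39, 2.75 and 3.11 CPM in FK866 plus NR and 3.39, 3.55 and 3.34 CPM in FK866, NR and Ex527 cultures. The FK866 cultures were the highest and did not overlap with the others. The differences of 0.71 ± 0.20 for FK866 (adjusted p = 0.0154) and -0.66 ± 0.20 for FK866 plus NR against FK866 (adjusted p = 0.0216) missed the threshold of 0.01, while the first was called by DESeq2 (adjusted p = 0.00599) and by edgeR without a filter on low counts (adjusted p = 0.00795).

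The wider lists were also examined in the cultures. Of 49 other lysosome genes tested, FK866 raised 3 and lowered 1 (8.16%, beside 4.59% of all genes), led by *Mitf* (0.77, adjusted p = 0.00189), a relative of *Tfeb*, with *Naglu* lower (-0.65). With FK866 plus NR against FK866, 6 were lower and 0 higher (12.2%, beside 4.81% of all genes), led by *Ctsa* (-0.81, adjusted p = 1.205e-06), *Atp6v1h* (-0.66) and *Neu1* (-0.65), and the list's median was -0.20. Of 34 other genes of the autophagy machinery edgeR called 0 in any culture comparison with the fold minimum, beside 0.596% to 4.81% of all genes. Between 7 and 16 had an unadjusted p under 0.05, with no share of all genes at that cutoff given, so no response is read from these counts. Of 19 other atrophy and FOXO genes, FK866 lowered 3 (15.8%, beside 4.59% of all genes), *Ddit4* (-1.22), *Sesn1* (-1.06) and *Sesn3* (-0.62), which are stress genes that restrain the growth kinase mTORC1. These were higher by 1.11, 0.91 and 0.82 with FK866 plus NR than with FK866. As they were named for being lowered by FK866 and both comparisons share the FK866 libraries, this rise is in part built in.

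In the annotation, 15 members have exon bases that overlap another gene, 4 of them on the same strand. For genes described here, an opposite-strand partner covers 22.3% of the exon bases of *Bnip3*, 26.9% of *Ctsl*, 17.3% of *Sqstm1*, 12.8% of *Hexa* and 9.31% of *Lamp1*, and *Ctsd* shares 34.4% of its exon bases with a gene on its own strand. In hearts, reads that overlapped several genes were left out by the authors, so these stretches may add no reads there. Whether counting used the strand is not given in the sources used here, and for the cultures, whose label allows a library of either kind, reads of a gene and its opposite-strand partner cannot be told apart.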

How the data were processed

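RNA-seq of 18 mouse hearts and 12 cultures labelled HL-1 was analysed from the deposited tables. For hearts, the authors deposited raw counts per gene, in a table named as normalized, and a second table of counts divided by size factors and rounded, a score that served only as a check. The submitters' processing notes list, for hearts on mm10, the aligner STAR (2.7.10a) after Trimmomatic (0.39), the counter featureCounts (2.0.4), DESeq2 (1.36.0) and Picard (3.0.0), and HISAT2 and TopHat2 on mm10 for the cultures. In hearts the authors removed duplicate, multi-mapping, ribosomal and mitochondrial reads and left out reads over several genes. Removal of duplicates from single-end reads lowers the counts of short, abundant genes most, and was not described for the cultures. For the cultures, the authors deposited counts and FPKM per gene, and FPKM was used only to compare levels between genes. Heart levels per length were computed from counts and the gene lengths of the culture table.

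Counts were tested with the quasi-likelihood test of edgeR 4.0.16 in R 4.3.3 after TMM scaling, in 1 fit over 18 hearts (average count over 5, Benjamini-Hochberg adjusted p under 0.05) and 1 over 12 cultures (filterByExpr, adjusted p under 0.01 and a change over 1.5-fold), adjusted over all genes tested. DESeq2 1.42.0 was an alternative, with other scaling, filters, samples and leave-one-out fits. On simulated counts with 200 genes changed by 1 on the log2 scale, edgeR recovered 164 in the 15443 heart genes (old H2O against young, ZT10) and 151 in the 14760 culture genes (FK866 against untreated). No fold minimum was applied there, and 5 and 3 unchanged genes were also called. Smaller changes, such as those of the called members, were not simulated. Library totals were 3922137 to 7562215 in hearts and 21337922 to 35000109 in cultures, so low members of the hearts carry the larger counting error. The members and lists were chosen with earlier results of these data known. Values per sample are given for members called in a comparison (the 8 largest changes each) and for *Klf15*, *Fbxo32*, *Trim63*, *Tfeb*, *Ulk1*, *Map1lc3b*, *Sqstm1*, *Bnip3* and *Lamp1*. At most 3 called genes per comparison are named from each other list, and some are not reported here. Old NR ZT10 replicates 1 and 3 differed least (chi-square per gene 1.06, beside 1.65 to 6.14 for other heart pairs) and were kept as separate mice. Counting error alone gives a value near 1, so this pair showed almost no further spread. Whether the pair came from separate mice was not tested, which bears on each comparison with old NR ZT10 hearts. All sample columns of the tables were used.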

Additional observations from a re-analysis of the deposited data

Results flagged for a closer look

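The difference between ZT10 and ZT22 was tested to differ between sets of hearts for 3 members. For *Klf15* it differed between old NR and old H2O hearts by -0.73 on the log2 scale, from 0.87 with water to 0.13 with NR, and between old H2O and young hearts by 0.39. For *Atg13* it differed between old H2O and young hearts by 0.54 and for *Hexa* by 0.30. The NR result for *Klf15* held without each library in turn (-0.82 to -0.66). Its old NR ZT10 replicates 1 and 3 showed almost no spread beyond counting error, and leaving out either keeps the other. Whether that pair came from separate mice was not tested. The 3 age by time results were each lost without some single libraries, and with DESeq2 those of *Klf15* (adjusted p = 0.0515) and *Hexa* (adjusted p = 0.0883) were lost.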

How the results depend on the processing

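No called member reversed its direction under another setting. Of 1101 member values under other settings, 1045 kept their side of the threshold, of which 5, not called under either setting, changed sign, and of 2736 leave-one-out values 79 lost and 14 gained a call. Most of these values belong to results not called in the main fit, so the shares kept do not measure how stable the calls were. DESeq2 alone lost 10 calls, all in hearts, and gained 1. DESeq2 called 1 member for old H2O against young at ZT10, 2 at ZT22, 1 for time in old H2O hearts, 0 for time in old NR hearts and 1 for age by time. Fits of only the groups compared called 4 and 2 members for age at ZT10 and ZT22, 0 for time in old NR hearts, 0 for NR at ZT22 (*Klf15*, adjusted p = 0.117) and 1 (*Lamp1*, lower by 0.59) for FK866, NR and Ex527 against FK866, as did an average count over 5. Without the fold minimum the culture counts were 15 for FK866, 13 for FK866 plus NR against FK866, 1 for FK866 plus NR against untreated and 9 for FK866, NR and Ex527 against FK866. The cause of these shifts was not tested, other than the dropped fold minimum itself. Leave-one-out counts ran from 1 to 3 for age at ZT10, 0 to 5 at ZT22 and 2 to 4 over both times, 3 to 7 for time in young, 1 to 3 in old H2O and 0 to 2 in old NR hearts, 0 to 0 for NR at ZT10 and over both times, 0 to 1 at ZT22, 0 to 5 for age by time and 1 to 1 for NR by time. In cultures they ran from 1 to 3 for FK866, 3 to 6 for FK866 plus NR against FK866, 0 to 0 for FK866 plus NR against untreated, and 1 to 1 and 0 to 1 for the 3 agents against FK866 plus NR and against FK866. Replicate numbers were not taken as pairs, as not every same-number correlation was over 0.1: in hearts 19 of 45 were (from -0.25 to 0.32, median 0.077), beside 15 of 90 for different numbers (median -0.0435), and in cultures 6 of 18 (from -0.55 to 0.23), beside 8 of 36. In hearts same numbers thus had the higher median. As any low pair fails this rule, it cannot decide whether hearts of the same number shared a factor. A replicate block called 2 members for time in old NR hearts, adding *Trim63* (adjusted p = 0.0210), added *Fbxo32* for time in old H2O hearts (adjusted p = 0.0431) and moved no other count by over 1.5 times. *Klf15* and *Trim63*, at 0 to 3 and 0 to 5 counts per culture, were not tested there, although the cultures were sequenced more deeply than the hearts.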
